A study of Homo sapiens with 18 samples.

Results

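The integrated stress response was followed through 10 of its regulators, which were ATF4, the transcription factors ATF5, ATF3, DDIT3, CEBPB and CEBPG, the feedback regulators TRIB3 and PPP1R15A, and the output genes CHAC1 and ASNS. These genes were picked by symbol, and the choice was made with earlier results of these data known. Each had its row in the tables of both time points, 10 of 22136 genes at 2 days and 10 of 21276 at 7 days, and all 10 passed the filter on low counts (at least 10 counts in at least 3 libraries).

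Poly(A) RNA of C4-2B cells, a human androgen receptor-positive, castration-resistant prostate cancer line, was sequenced in 18 libraries that fall into 6 groups of 3. At 2 days (48 hours), the groups were DMSO vehicle and VIC-1911 at 0.1 μM. At 7 days they were vehicle, VIC-1911 at 0.1 μM, olaparib at 1 μM, and both drugs together at these doses. VIC-1911 inhibits the mitotic kinase AURKA, and olaparib inhibits the DNA repair enzyme PARP, and the study asked what each drug and the pair do to gene expression. All groups are cultures of this 1 line in serum-containing medium, and its labelled identity was checked against markers. All 10 luminal prostate markers examined were above 1 FPKM (read fragments scaled to transcript length and to library size) in every library, whereas 6 of 8 markers of blood, stroma and vessel stayed under 1 FPKM throughout, with CD3E and DCN at 0. The other 2, CD68 and COL1A1, were at 5.55 to 10.1 and 1.1 to 2.27 FPKM.

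Library totals were between 3245273 and 7184420 counts at 2 days and between 4967931 and 19684208 at 7 days, and the biological coefficient of variation was 3.44% and 4.43%. At 7 days, the vehicle and VIC-1911 libraries carry 1 run of consecutive library names, and the olaparib and combination libraries another. What this difference in library numbers stands for is not given. Olaparib or the combination against vehicle, and either of them against VIC-1911, thus cannot be told apart from it. VIC-1911 against vehicle, the combination against olaparib and the interaction of the drugs are made within these sets. The 3 comparisons with vehicle at 7 days share the same 3 vehicle libraries, and a shift common to these libraries would enter all 3. In bulk libraries, a lower level in every cell and fewer cells that express a gene cannot be told apart.

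The integrated stress response starts when 1 of several kinases phosphorylates the α subunit of the initiation factor eIF2, in response to misfolded protein in the endoplasmic reticulum, amino acid shortage, viral RNA or lack of heme. General translation then falls while translation of the ATF4 message rises, and ATF4, a basic leucine zipper (bZIP) protein, pairs with other bZIP proteins to switch on genes of amino acid synthesis, transport and tRNA charging. DDIT3, TRIB3 and CHAC1 belong to its later, stress-related output, and PPP1R15A closes the loop by guiding a phosphatase back to eIF2. ATF4 is controlled both at the message and in translation, and the values here are message levels only.

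In the 7-day vehicle cells, ATF4 was the most abundant of the 10 messages at 394 ± 4.8 FPKM (SD, n = 3, as for all group values that follow). ASNS followed at 183 ± 13.7 and TRIB3 at 99.2 ± 1.97. The next genes, DDIT3 at 50.1 ± 5.63 and CHAC1 at 45.6 ± 1.07, did not differ beyond their spread, since the DDIT3 libraries ran from 44.8 to 56 FPKM and those of CHAC1 from 44.4 to 46.4. CEBPG at 27 ± 0.307, CEBPB at 20.8 ± 0.912, ATF3 at 16 ± 0.203, ATF5 at 9.05 ± 0.981 and PPP1R15A at 3.1 ± 0.677 came below them without overlap between neighbours. FPKM is scaled to transcript length, which allows genes to be set side by side within a time point.

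**Figure D1:**
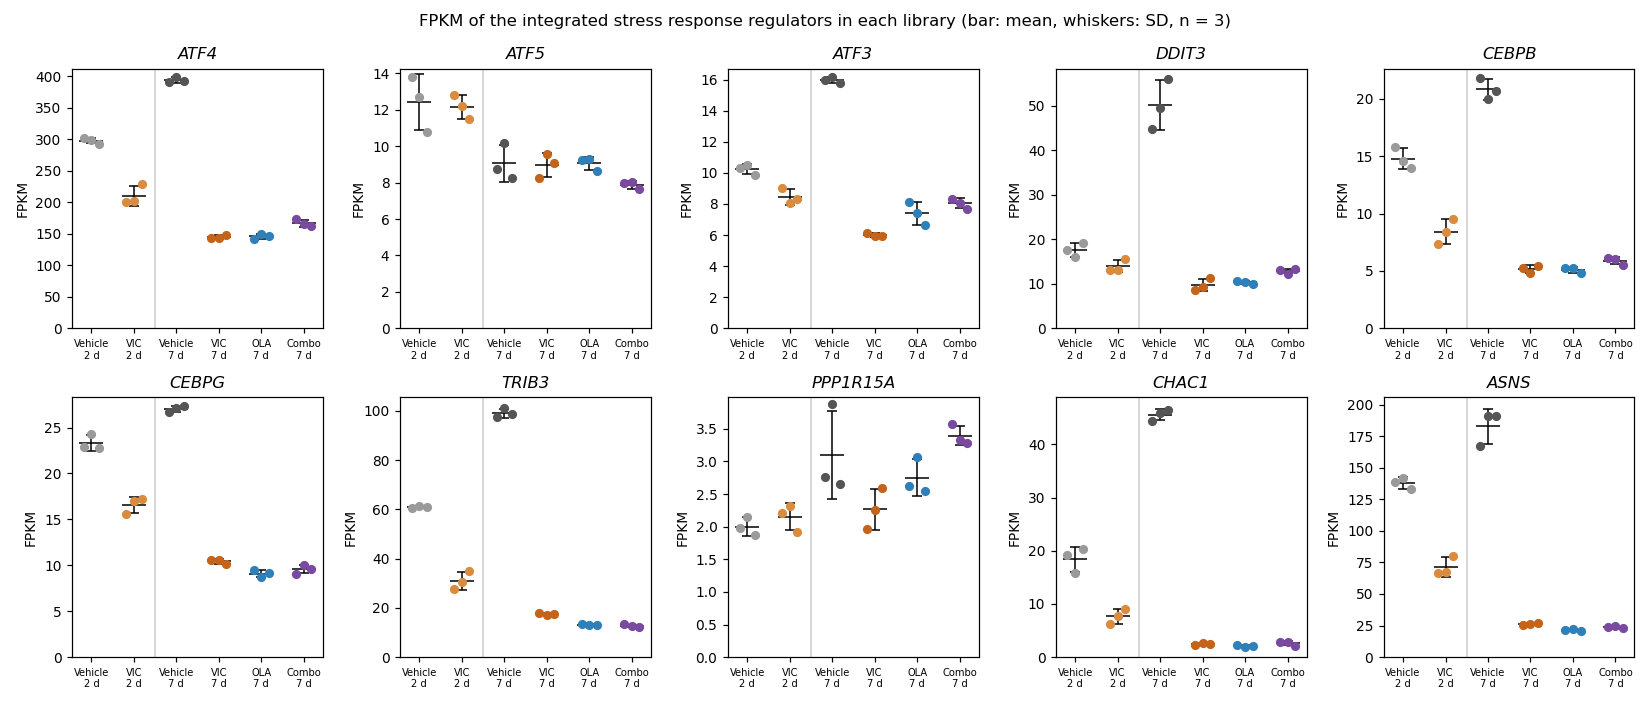
FPKM (linear axis from 0, a different range in each panel) of each gene in each of the 18 libraries, grouped by treatment and time point. Points are libraries, the bar is the mean and the whiskers are the SD of 3 libraries, and the grey line separates the 2-day from the 7-day table. In 8 panels, all but ATF5 and PPP1R15A, the 3 vehicle libraries at 7 days lie above the 9 treated libraries of that day.

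The promoter sequences of these genes are shown where they hold the element through which ATF4 and its C/EBP partners are known to act. The core TGATGNAA was searched on both strands of the RefSeq promoter windows (GRCh38.p14), which run from 250 bases before to 50 bases after each listed transcript start. Of 35116 windows, 1270 (3.62%) held it, and of 27305 genes, 1217 (4.46%) had it in at least 1 window. All 10 regulators were matched, with 20 windows between them, and 4 genes held the element in 1 window each. The stretches are given 5′ to 3′ on the strand of the gene, with the matching letters in capitals.
ASNS (chr7:97872458-97872487, minus strand): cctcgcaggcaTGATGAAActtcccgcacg
CHAC1 (chr15:40953251-40953280, plus strand): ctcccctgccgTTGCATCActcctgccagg
CEBPG (chr19:33373971-33374112, plus strand): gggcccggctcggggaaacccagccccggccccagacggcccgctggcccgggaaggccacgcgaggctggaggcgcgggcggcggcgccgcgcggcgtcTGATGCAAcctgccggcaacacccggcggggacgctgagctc
ATF3 (chr1:212565157-212565283, plus strand): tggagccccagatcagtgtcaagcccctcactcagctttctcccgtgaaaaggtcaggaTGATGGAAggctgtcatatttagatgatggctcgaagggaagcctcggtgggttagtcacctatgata

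Counted from the transcript start of its window, the match begins at -68 in ASNS, -209 in CHAC1, -42 in CEBPG and -191 in ATF3. In CHAC1 the element lies on the strand opposite to the gene. The ASNS and CHAC1 matches overlap an annotated exon of another transcript of the same gene, and the other 2 do not. No match in the windows of the other 6 genes says only that these letters do not occur there. All 4 genes with a match, and 4 of the 6 without one, were called lower with VIC-1911 and with olaparib at 7 days (adjusted p under 0.05 and at least 2-fold), as described next.

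After 2 days of VIC-1911, the output genes and TRIB3 were already lower, while ATF3, DDIT3, ATF5 and PPP1R15A did not pass the test. Called at an adjusted p under 0.05 and a change of at least 1.5-fold, 4 of the 10 genes were lower and 0 were higher. Of all 12241 genes tested, 1.33% were called lower and 0.825% higher. These 4 were CHAC1, TRIB3, ASNS and CEBPB. ATF4 and CEBPG passed the adjusted p but not the limit on the fold, which makes 6 of 10 lower by adjusted p alone, against 7.19% of all genes. In 8 of the 10 genes the 3 treated libraries were all under the lowest vehicle library, against 15.1% of all genes. The median log2 fold change of the 10 genes was -0.46, and that of all genes was -0.003.

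After 7 days of VIC-1911, 8 of the 10 genes were called lower at an adjusted p under 0.05 and a change of at least 2-fold, against 3.43% of 14409 genes, and 0 were higher, against 3.46%. In 9 of 10 genes no treated library reached the lowest vehicle library, as in 29% of all genes. CHAC1 kept 5.43% of its mean vehicle FPKM, ASNS 14.4%, TRIB3 17.7%, DDIT3 19.3% and ATF4 36.8%. PPP1R15A passed the adjusted p with a smaller change, and ATF5 did not pass. The median log2 fold change was -1.77, and -0.005 over all genes. Within the same libraries the summed FPKM of the 10 luminal prostate markers ran from 3190 to 3360 with VIC-1911 and from 4450 to 4480 with vehicle, and the sum of the 8 markers of blood, stroma and vessel from 9.62 to 9.94 and from 8.29 to 9.06. The first sum holds KLK3, at 1240 to 2700 FPKM over all libraries, as its largest part. The second rests mostly on CD68 and COL1A1, the only markers of its list that reached 1 FPKM. Both sums thus follow few genes, and the part of these differences in the results was not tested.

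Olaparib lowered the same 8 genes at 7 days, where 3.53% of all genes were called lower and 3.63% higher. Their libraries did not overlap those of vehicle in any of the 8, against 28.3% of all genes. The remaining shares of mean vehicle FPKM were 4.5% for CHAC1, 11.7% for ASNS, 13.2% for TRIB3, 20.5% for DDIT3 and 37% for ATF4. ATF5 and PPP1R15A did not pass the test. The median log2 fold change was -1.83, and 0.01 over all genes. Luminal marker sums were between 2970 and 3090 FPKM in the olaparib libraries and those of the blood, stroma and vessel markers between 10.5 and 12.5, and their part was again not tested.

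With both drugs, 7 genes were called lower against 4% of all genes, and 9 of 10 were lower by adjusted p alone against 28%. The same 9 genes had all 3 libraries below those of vehicle, against 29.4%. ATF3, with a log2 fold change of -0.99, just missed the limit on the fold, and ATF5 fell by 0.22 on the log2 scale, far short of it. CHAC1 kept 5.67% of its mean vehicle FPKM, TRIB3 12.8%, ASNS 12.9%, DDIT3 25.7% and ATF4 42.2%. The median log2 fold change was -1.66, and 0.005 over all genes. The luminal markers summed to between 2940 and 3090 FPKM and the blood, stroma and vessel markers to between 11.8 and 12.8, with their part not tested.

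**Figure D2:**
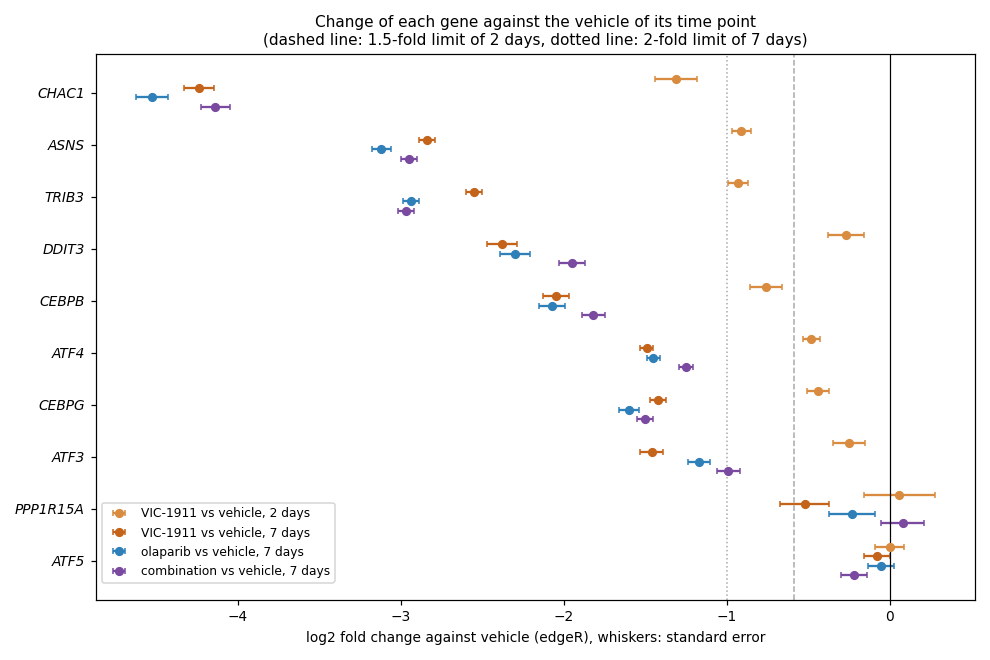
Log2 fold change against the vehicle of the same time point (edgeR) for each gene, with 1 point per comparison and whiskers of 1 standard error. At 7 days 7 genes lie left of the 2-fold line in all 3 comparisons and ATF3 in 2 of them, and CHAC1 lies farthest left at -4.14 to -4.53. ATF5 and PPP1R15A lie closest to 0, with PPP1R15A at -0.52 for VIC-1911.

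ATF4, on chromosome 22 (39519695 to 39522683, plus strand, GRCh38 for all positions), is the factor through which the response acts on transcription. At 2 days the vehicle libraries had 301, 299 and 293 FPKM and the VIC-1911 libraries 200, 202 and 228. At 7 days the vehicle libraries had 390, 399 and 392 FPKM, against 143, 143 and 148 with VIC-1911, 141, 149 and 147 with olaparib, and 173, 165 and 162 with both drugs. Every treated library was therefore below every vehicle library of its day, and the combination libraries were above those of either drug. On the log2 scale the fold change was -0.48 ± 0.05 (SE) at 2 days (edgeR, adjusted p = 3.6e-10). At 7 days it was -1.49 ± 0.04 with VIC-1911 (adjusted p = 1.2e-22), -1.45 ± 0.04 with olaparib (adjusted p = 1.3e-22) and -1.25 ± 0.04 with both (adjusted p = 3.5e-21). The annotation holds 4 ATF4 pseudogenes that the count tables do not list, and how shared reads were counted is not given, so the level of ATF4 is uncertain to that extent.

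DDIT3 (CHOP; chromosome 12, 57516588 to 57521737, minus strand) is a bZIP factor that ATF4 induces and that is known for promoting death under lasting stress. At 2 days it measured 17.5, 16 and 19.2 FPKM with vehicle and 13.2, 13.2 and 15.6 with VIC-1911. The groups did not overlap, but the log2 fold change of -0.27 ± 0.11 did not pass (adjusted p = 0.111, 95% interval -0.50 to -0.05). At 7 days the vehicle libraries stood at 44.8, 49.6 and 56 FPKM, and the 9 treated libraries were between 8.52 and 13.3. DDIT3 thus had log2 fold changes of -2.38 ± 0.09 with VIC-1911 (adjusted p = 1.9e-19), -2.3 ± 0.09 with olaparib (adjusted p = 3.5e-19) and -1.95 ± 0.08 with both (adjusted p = 3.2e-18). It overlaps MARS1, MBD6 and MIR616, and MARS1, which is listed as MARS, lies on the opposite strand and reached 7447 counts in a 7-day library. MARS, a tRNA synthetase gene, itself had log2 fold changes of -1.09, -1.4 and -1.5 in these comparisons, so that without a stated strand setting the DDIT3 values are uncertain.

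CEBPB (chromosome 20, 50190830 to 50192668, plus strand) encodes a C/EBP factor that pairs with ATF4. It was the only transcription factor of the 10 called at 2 days, with 15.8, 14.6 and 14 FPKM in vehicle libraries and 7.35, 8.36 and 9.52 in VIC-1911 libraries. CEBPB thus had -0.76 ± 0.1 as its log2 fold change (adjusted p = 1.1e-06), and under a test for a change beyond the fold limit (glmTreat) the adjusted p was 1. At 7 days CEBPB had 21.8, 20 and 20.7 FPKM in vehicle, and the 9 treated libraries were between 4.78 and 6.11. Its log2 fold changes were -2.05 ± 0.08 with VIC-1911 (adjusted p = 3.5e-19), -2.07 ± 0.08 with olaparib (adjusted p = 2.9e-19) and -1.82 ± 0.07 with both (adjusted p = 1.2e-18). The antisense gene CEBPB-AS1 overlaps it, with at most 34 counts in a 7-day library.

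CEBPG (chromosome 19, 33373685 to 33382686, plus strand), the other C/EBP partner of ATF4, fell in a narrower range. At 2 days its vehicle libraries had 22.9, 24.3 and 22.8 FPKM and its VIC-1911 libraries 15.6, 17 and 17.2. It passed the adjusted p there (7.2e-06) with a log2 fold change of -0.44 ± 0.07, under the 1.5-fold limit. At 7 days it was at 26.7, 27.1 and 27.3 FPKM with vehicle, at 10.6, 10.6 and 10.1 with VIC-1911, at 9.45, 8.69 and 9.16 with olaparib and at 9.1, 10 and 9.58 with both. The log2 fold changes were -1.42 ± 0.05 with VIC-1911 (adjusted p = 4.7e-19), -1.6 ± 0.06 with olaparib (adjusted p = 3.7e-20) and -1.5 ± 0.05 with both (adjusted p = 5.9e-20).

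ATF3 (chromosome 1, 212565334 to 212620777, plus strand) is a stress-induced bZIP factor that can repress transcription. At 2 days the vehicle libraries had 10.3, 10.5 and 9.87 FPKM and those with VIC-1911 9.02, 8.04 and 8.31. All VIC-1911 libraries were lower, yet the log2 fold change of -0.25 ± 0.1 did not pass (adjusted p = 0.0919, 95% interval -0.45 to -0.05). At 7 days it had 16, 16.2 and 15.8 FPKM in vehicle, 6.15, 5.94 and 5.92 with VIC-1911, 8.1, 7.44 and 6.62 with olaparib, and 8.34, 8.08 and 7.7 with both. The olaparib and combination libraries overlap each other and lie above the VIC-1911 libraries, an order that crosses the sets of library names. Its log2 fold changes were -1.46 ± 0.07 with VIC-1911 (adjusted p = 3.4e-16), -1.17 ± 0.07 with olaparib (adjusted p = 3.0e-14) and -0.99 ± 0.07 with both (adjusted p = 3.3e-13). The last of these lies at the 2-fold limit. Without combination replicate 1 it was -1.03 and called, without vehicle replicate 1 or 3 it was -1.01 and called, and the olaparib call was lost with glmTreat (adjusted p = 0.0965).

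ATF5 (chromosome 19, 49928702 to 49933935, plus strand), a close relative of ATF4, stood apart from the other 5 transcription factors. At 2 days it measured 13.8, 12.7 and 10.8 FPKM with vehicle and 12.8, 12.2 and 11.5 with VIC-1911, and at 7 days 8.73, 10.2 and 8.27 with vehicle. The 7-day libraries with VIC-1911 had 8.23, 9.56 and 9.08 FPKM, those with olaparib 9.26, 9.3 and 8.65, and those with both drugs 8, 8.02 and 7.64. Only the combination libraries lay below all vehicle libraries, by a log2 fold change of -0.22 ± 0.08 (adjusted p = 0.0173). This small difference passed under 10 of 16 alternatives, and without vehicle replicate 2 it was -0.13 (adjusted p = 0.207), without combination replicate 3 -0.2 (adjusted p = 0.0629). With 1 drug at 7 days the log2 fold change was -0.08 for VIC-1911 (adjusted p = 0.436, 95% interval -0.23 to 0.08) and -0.05 for olaparib (adjusted p = 0.656, 95% interval -0.20 to 0.11), intervals that leave out a 2-fold change. ATF5 overlaps NUP62 and IL4I1 on the opposite strand, and NUP62 reached 1974 counts in a 7-day library where ATF5 reached at most 600, so its values are uncertain too.

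TRIB3 (chromosome 20, 362835 to 397559, plus strand) encodes a pseudokinase that ATF4 and DDIT3 induce and that in turn restrains ATF4. Its vehicle libraries were tightly grouped at 60.7, 61.2 and 60.8 FPKM at 2 days, against 27.5, 30.5 and 34.8 with VIC-1911. At 7 days they had 97.5, 101 and 98.7 FPKM, against 18.1, 17.1 and 17.5 with VIC-1911, 13.3, 13.2 and 12.9 with olaparib, and 13.3, 12.5 and 12.2 with both drugs. In TRIB3, as in ASNS, the olaparib and the combination libraries lay below those with VIC-1911. Both orders cross the sets of library names, and olaparib against VIC-1911 was not tested. The log2 fold change was -0.93 ± 0.06 at 2 days (adjusted p = 1.2e-14). At 7 days it was -2.55 ± 0.05 with VIC-1911 (adjusted p = 1.5e-26), -2.94 ± 0.05 with olaparib (adjusted p = 8.6e-28) and -2.97 ± 0.05 with both (adjusted p = 3.3e-28).

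PPP1R15A (GADD34; chromosome 19, 48872212 to 48876059, plus strand), which directs a phosphatase to eIF2, was the least abundant of the 10 in the vehicle and VIC-1911 groups, with CHAC1 below it in the other 2, and rested on 18 to 44 counts per library at 2 days. It had 1.98, 2.15 and 1.87 FPKM with vehicle at 2 days and 2.21, 2.32 and 1.92 with VIC-1911. At 7 days the vehicle libraries were spread over 2.76, 3.88 and 2.66 FPKM, and the treated ones had 1.96, 2.25 and 2.59 with VIC-1911, 2.63, 3.07 and 2.55 with olaparib and 3.57, 3.33 and 3.29 with both. VIC-1911 libraries lay below the vehicle libraries, with a log2 fold change of -0.52 ± 0.15 (adjusted p = 0.00348). It was -0.31 (adjusted p = 0.109) without vehicle replicate 2, the highest of the 3, and ranged from -0.66 to -0.31 over all alternatives. The changes with olaparib, -0.23 (adjusted p = 0.176, 95% interval -0.51 to 0.05), and with both drugs, 0.08 (adjusted p = 0.613, 95% interval -0.18 to 0.35), did not pass, and neither did that at 2 days, 0.06 (adjusted p = 0.909, 95% interval -0.37 to 0.48).

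CHAC1 (chromosome 15, 40952962 to 40956512, plus strand) encodes an enzyme that breaks down glutathione and had the largest change of the 10 in every comparison with vehicle. At 2 days its libraries had 19.2, 15.8 and 20.3 FPKM with vehicle and 6.18, 7.75 and 9.06 with VIC-1911. At 7 days it stood at 44.4, 45.9 and 46.4 FPKM with vehicle, at 2.28, 2.63 and 2.5 with VIC-1911, at 2.25, 1.85 and 2.04 with olaparib and at 2.84, 2.75 and 2.16 with both. No treated library of 7 days rose above 2.84 FPKM, although each still held 23 to 102 counts. The log2 fold change was -1.31 ± 0.13 at 2 days (adjusted p = 6.6e-10), the 8th lowest of 12241 genes. At 7 days it was -4.24 ± 0.09 with VIC-1911 (adjusted p = 3.1e-25), -4.53 ± 0.1 with olaparib (adjusted p = 1.1e-25) and -4.14 ± 0.09 with both (adjusted p = 1.4e-25).

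ASNS (chromosome 7, 97851677 to 97872542, minus strand) encodes asparagine synthetase, the enzyme that makes asparagine from aspartate and a classic target of ATF4 in amino acid shortage. It measured 139, 142 and 133 FPKM with vehicle at 2 days, against 66.5, 67.6 and 80.1 with VIC-1911. At 7 days the vehicle libraries had 167, 191 and 191 FPKM, those with VIC-1911 25.8, 26.5 and 27, those with olaparib 21.7, 22.4 and 20.3, and those with both 23.7, 24.5 and 23. The treated groups of 7 days did not overlap one another, with olaparib lowest. VIC-1911 belongs to another set of library names than olaparib and the combination. Its log2 fold change was -0.91 ± 0.06 at 2 days (adjusted p = 2.3e-15), and at 7 days -2.84 ± 0.05 with VIC-1911 (adjusted p = 1.9e-26), -3.12 ± 0.06 with olaparib (adjusted p = 3.2e-27) and -2.95 ± 0.05 with both (adjusted p = 5.7e-27). By p, TRIB3 and ASNS ranked 4th and 5th of the 14409 genes in all 3 comparisons of 7 days. The annotation holds 4 ASNS pseudogenes not listed in the count tables, so that shared reads leave its level uncertain.

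When VIC-1911 was added to olaparib, no gene of the 10 passed the test as lower. In the combination against olaparib, 0 of 10 genes were called, against 0.382% of all genes, and by adjusted p alone ATF4 and DDIT3 were higher, 2 of 10 against 4.55%. The combination libraries lay above all olaparib libraries in 5 genes and below them in ATF5, against 13% and 14.4% of all genes. ATF4 rose by 0.2 ± 0.04 on the log2 scale (adjusted p = 9.9e-04, 3 of 3 libraries higher) and DDIT3 by 0.35 ± 0.1 (adjusted p = 0.0189, 3 of 3 higher). The DDIT3 result depends on single libraries and on the method, and it passed under 10 of 16 alternatives. Its adjusted p was 0.0824 without combination replicate 3, 0.0554 without olaparib replicate 2 and 0.118 without olaparib replicate 3. With limma on log2(FPKM + 0.1) and log2(FPKM + 1) it was 0.0584 and 0.0644. For the most strongly lowered genes, the log2 difference was 0.39 in CHAC1 (adjusted p = 0.0765, 95% interval 0.11 to 0.67), 0.16 in ASNS (adjusted p = 0.0715, 95% interval 0.05 to 0.28) and -0.03 in TRIB3 (adjusted p = 0.812, 95% interval -0.14 to 0.08). ASNS passed with the replicate number as a block (0.18, adjusted p = 0.035), and CHAC1 without combination replicate 3 (0.5, adjusted p = 0.0365).

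Against VIC-1911, the combination again gave 0 calls in 10 genes, where 4.05% of all genes were called. By adjusted p alone, 5 genes were higher and 1 was lower, and the shares over all genes were 20.7% and 22.2%. The libraries of the pair lay above all VIC-1911 libraries in the same 5 genes and below them in TRIB3 and ASNS, against 24.9% and 25.3%. PPP1R15A was higher by 0.61 ± 0.14 on the log2 scale (adjusted p = 9.1e-04), ATF3 by 0.47 ± 0.08 (adjusted p = 1.7e-05), DDIT3 by 0.43 ± 0.1 (adjusted p = 8.8e-04), ATF4 by 0.24 ± 0.04 (adjusted p = 1.7e-05) and CEBPB by 0.23 ± 0.09 (adjusted p = 0.0387). TRIB3 fell by 0.42 on the log2 scale (adjusted p = 2.0e-07). Thus ATF4, ATF3 and DDIT3 were higher with both drugs than with VIC-1911 in all 3 libraries, while TRIB3 was lower. The CEBPB result is the least firm of these, since it passed under 8 of 16 alternatives, and its adjusted p was 0.113 and 0.0784 without combination replicate 1 or 2 and 0.063 and 0.164 without VIC-1911 replicate 1 or 2. Like olaparib and the combination against vehicle, this comparison is made across the 2 sets of library names.

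The changes of the single drugs did not add up in the pair. The interaction, which is the effect of VIC-1911 in the presence of olaparib less its effect in vehicle, was positive in 9 of the 10 genes at an adjusted p under 0.05, with no limit on the fold, against 21% of all genes. It was largest in CHAC1, at 4.62 ± 0.18 on the log2 scale (adjusted p = 1.2e-18), followed by ASNS at 3 ± 0.08 (adjusted p = 3.1e-22), DDIT3 at 2.73 ± 0.13 (adjusted p = 4.6e-16) and TRIB3 at 2.52 ± 0.07 (adjusted p = 2.2e-21). CEBPB at 2.3, ATF4 at 1.69, ATF3 at 1.64, CEBPG at 1.52 and PPP1R15A at 0.84 also passed, with adjusted p-values of at most 0.00113. ATF5 had -0.1 ± 0.11 (adjusted p = 0.497, 95% interval -0.32 to 0.12). In CHAC1, VIC-1911 took the mean from 45.6 to 2.47 FPKM without olaparib, and from 2.05 to 2.58 FPKM with it. A gene that each drug alone lowers to about the level of the pair must have a positive interaction. Its value is then near the VIC-1911 change with its sign turned. For such genes the contrast is not independent of the single-drug calls, whereas the 21% covers all genes, lowered or not. The 3 vehicle libraries enter this contrast as they do the comparisons above.

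**Figure D3:**
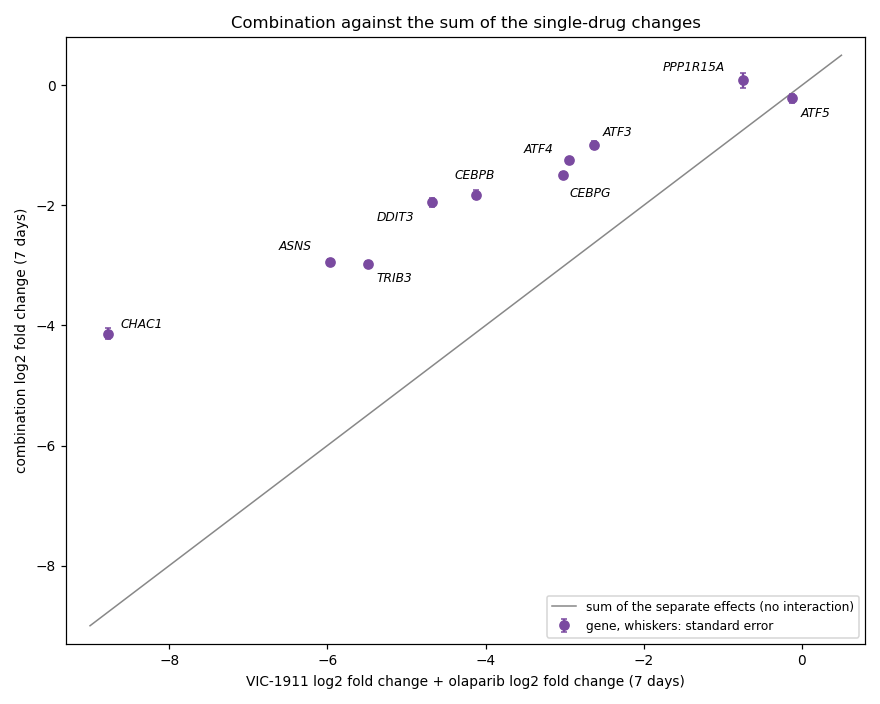
Log2 fold change of the combination (vertical axis) against the sum of the log2 fold changes of VIC-1911 and olaparib (horizontal axis) at 7 days, with 1 point per gene, vertical whiskers of 1 standard error and a line where both are equal. All genes but ATF5 lie above the line, by 0.84 for PPP1R15A up to 4.62 for CHAC1.

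The effect of VIC-1911 was larger at 7 than at 2 days. The difference between its effects on the 2 days was negative in 8 of 10 genes at an adjusted p under 0.05, against 14.2% of the 13832 genes tested. CHAC1 was lower by a further -2.94 ± 0.17 (adjusted p = 1.5e-18), DDIT3 by -2.12 ± 0.16 (adjusted p = 1.9e-15), ASNS by -1.94 ± 0.08 (adjusted p = 3.0e-23) and TRIB3 by -1.63 ± 0.08 (adjusted p = 3.4e-21). CEBPB at -1.3, ATF3 at -1.22, ATF4 at -1.02 and CEBPG at -1 passed as well, with adjusted p-values of at most 4.3e-11. PPP1R15A had -0.6 (adjusted p = 0.11, 95% interval -1.14 to -0.05) and ATF5 -0.09 (adjusted p = 0.646, 95% interval -0.34 to 0.16). DDIT3, which did not pass at 2 days, thus had the second-largest difference between the days.

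Vehicle levels of the 2 days are set side by side without a test, since the tables were made separately. DDIT3 was at 17.5 ± 1.6 FPKM at 2 days and at 50.1 ± 5.63 at 7 days, a ratio of 2.86, and CHAC1 at 18.5 ± 2.34 and 45.6 ± 1.07, a ratio of 2.47. For TRIB3, ATF3, PPP1R15A, CEBPB, ASNS, ATF4 and CEBPG the ratio was between 1.16 and 1.63, and for ATF5 it was 0.726. In 9 of the 10 genes the vehicle mean was therefore higher at 7 days, but the share over all genes was not computed. Vehicle levels outside the 10 differed too, so the rise is not shown to be particular to them. The luminal marker sum ran from 2630 to 2830 FPKM at 2 days and from 4450 to 4480 at 7 days. XBP1 was at 181 and 335 FPKM, and JUNB at 21.7 and 14.4. In the VIC-1911 groups CHAC1 was at 7.66 ± 1.44 FPKM at 2 days and at 2.47 ± 0.179 at 7 days. The part of the vehicle levels in the larger effect at 7 days was not tested.

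Other genes of the pathway were followed in 4 lists. The first held 21 genes that act upstream of ATF4, among them the eIF2α kinases and the subunits of eIF2 and of its exchange factor eIF2B. None was called in any comparison with vehicle. Of all genes, 1.33% were called lower and 0.825% higher at 2 days. At 7 days the shares were 3.43% to 4% lower and 3.46% to 4.55% higher. At such shares few calls would fall among 21 genes. By adjusted p alone, 2 were higher and 1 lower at 2 days, against 7.5% and 7.19% of all genes. At 7 days 6 were higher and 8 lower with VIC-1911 (26.6% and 25.8% of all genes), 7 and 8 with olaparib (28.1% and 25.9%) and 7 and 7 with both (28.6% and 28%). EIF2AK3 (PERK), the kinase that senses stress in the endoplasmic reticulum, was at 8.14 ± 0.429 FPKM with vehicle at 7 days and at 5.27 ± 0.512, 5.16 ± 0.186 and 5.03 ± 0.174 with VIC-1911, olaparib and both. Its log2 fold changes of -0.67, -0.66 and -0.68 passed the adjusted p (at most 6.4e-09). EIF2AK4 (GCN2), the kinase that senses uncharged tRNA, rose by 0.27, 0.38 and 0.26 on the log2 scale (adjusted p at most 1.1e-04), and EIF2AK1 (HRI), the heme-regulated kinase, had -0.19, -0.16 and -0.19 (adjusted p at most 0.00435). EIF2AK2 (PKR), the kinase for double-stranded RNA, did not pass, with log2 fold changes of 0.06, 0.17 and 0.13 (adjusted p of at least 0.138). PPP1R15B, the constitutive counterpart of PPP1R15A, was lower in all 3, by -0.34, -0.49 and -0.62 (adjusted p at most 6.7e-07). At 2 days none of these 5 genes passed, with log2 fold changes between -0.04 and 0.14.

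Most output genes of ATF4 were lower in the same comparisons at 7 days. The list holds 43 genes outside them, of amino acid synthesis, amino acid transport, tRNA charging and stress signaling, that are known to depend on ATF4 or to respond with it. At 2 days 12 of 42 tested were called lower, at 7 days 32 with VIC-1911, 34 with olaparib and 34 with both, and 0 were called higher in any of these comparisons. The shares of all genes called lower were 1.33%, 3.43%, 3.53% and 4%. The median log2 fold changes of the list were -0.37, -1.53, -1.48 and -1.4, and those of all genes -0.003, -0.005, 0.01 and 0.005. PCK2, the mitochondrial enzyme that makes phosphoenolpyruvate, was at 246 ± 11.3 FPKM with vehicle at 7 days and at 16.5 ± 1.31, 11.6 ± 0.887 and 12.3 ± 0.648 with VIC-1911, olaparib and both (log2 fold changes -3.94, -4.4 and -4.33, adjusted p at most 4.0e-29). SLC7A11, the cystine transporter that feeds glutathione synthesis, and whose counts are uncertain because an antisense gene overlaps it, fell from 72.5 ± 5.28 FPKM to 6.96 ± 0.49, 4.4 ± 0.154 and 4.53 ± 0.475 (adjusted p at most 1.5e-26). DDIT4 (REDD1), an inhibitor of mTORC1, was at 370 ± 18.7 FPKM with vehicle and between 90.8 and 97.4 in the means of the treated groups, and STC2, a secreted glycoprotein, at 76.8 ± 3.6 and between 13 and 13.4. At 2 days, PCK2 had a log2 fold change of -1.08, SLC7A11 of -1.05, DDIT4 of -0.96 and STC2 of -0.59, all called. FGF21, a secreted hormone that was singled out after its values were seen, had 63, 81 and 29 counts with vehicle at 7 days and at most 1 count in each of the 9 treated libraries.

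The other branches of the unfolded protein response were followed in 20 genes. Of the 20 genes listed for the ATF6 and XBP1 branches, 0 were called at 2 days, and 3, 4 and 4 were called lower at 7 days with VIC-1911, olaparib and both, against 1.33%, 3.43%, 3.53% and 4% of all genes. By adjusted p alone the count lower at 7 days was 18, 19 and 20, against 25.8%, 25.9% and 28% of all genes, with median log2 fold changes of -0.4, -0.6 and -0.69. HERPUD1, a protein of endoplasmic reticulum-associated degradation that ATF4 can also induce, was at 174 ± 1.47 FPKM with vehicle and at 60.3 ± 2.65, 53.1 ± 1.58 and 53.3 ± 2.3 with the drugs. ERN1 (IRE1α), the sensor that splices XBP1, had log2 fold changes of -1.63, -1.61 and -1.89, and SEL1L, which holds the degradation complex together, of -0.87, -1.04 and -1.27, the first of which was not called.

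Among 36 other bZIP factors, 32 of which were tested at 7 days, changes went in both directions. With both drugs 4 were called higher and 4 lower, against 4.55% and 4% of all genes. With either drug alone 1 was higher and 3 were lower. The shares of all genes were 3.46% and 3.43% with VIC-1911, and 3.63% and 3.53% with olaparib. By adjusted p alone, more of the 32 were lower than higher. The counts were 8 higher and 15 lower with VIC-1911 (26.6% and 25.8% of all genes), and 8 and 13 with olaparib (28.1% and 25.9%). With both drugs they were 8 and 15 (28.6% and 28%). MAF rose from 1.61 ± 0.113 FPKM with vehicle to 4.62 ± 0.411 with VIC-1911, 9.34 ± 1.38 with olaparib and 11.1 ± 1.04 with both (log2 fold changes 1.47, 2.52 and 2.77). JUNB, a subunit of AP-1, was at 14.4 ± 1.34 FPKM with vehicle and at 37.3 ± 2.49 with both drugs (log2 fold change 1.35). XBP1, the secretory stress factor, was at 335 ± 9.39 FPKM and at 78.4 ± 1.13 (log2 fold change -2.1), and JDP2, a repressor that binds AP-1 sites, at 6.25 ± 0.396 and 1.31 ± 0.169 (log2 fold change -2.26). Of the 30 tested at 2 days, MAF was called higher (1.3) and JDP2 lower (-0.8), against 0.825% and 1.33% of all genes. The list contains CEBPZ, which shares the family's name but is not a bZIP protein.

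**Figure D4:**
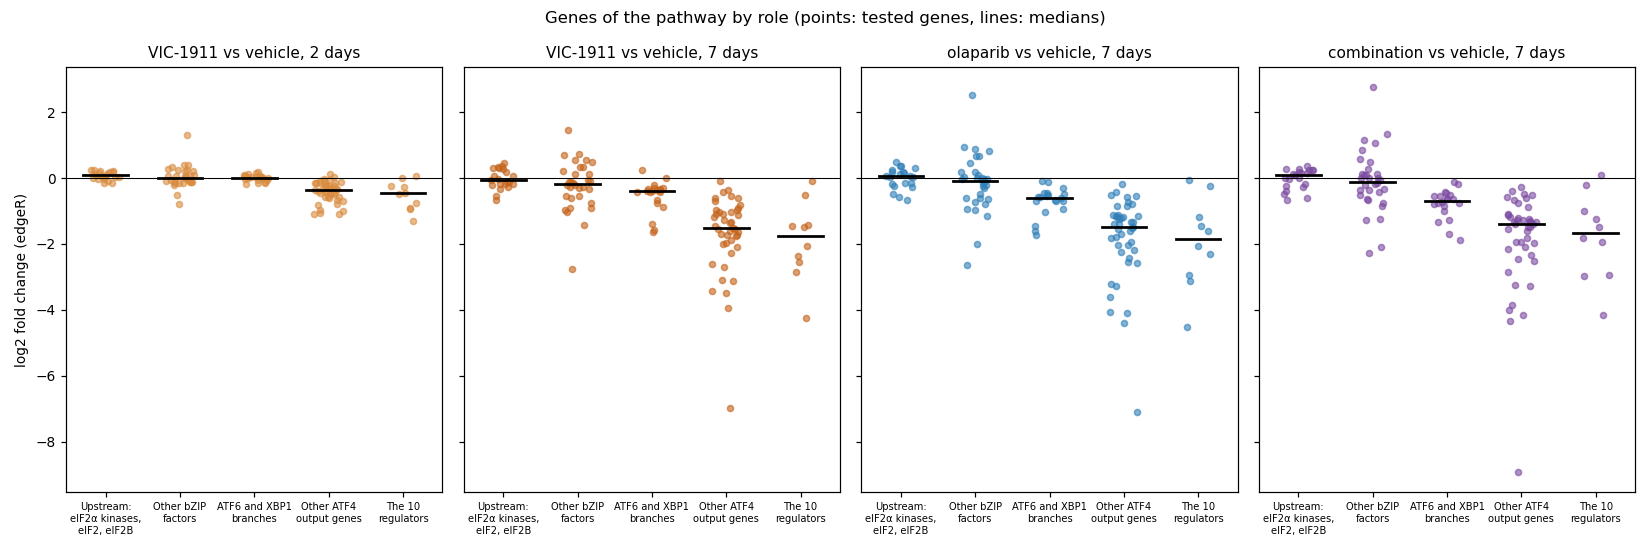
Log2 fold change against vehicle (edgeR) of each tested gene of the 4 lists and of the 10 regulators, in 1 panel per comparison, with points spread sideways only for legibility and a line at the median. The upstream genes have medians of 0.09 at 2 days and -0.05, 0.05 and 0.1 at 7 days, whereas the output genes have medians of -0.37 at 2 days and -1.53, -1.48 and -1.4 at 7 days. The lowest point of each 7-day panel is FGF21, whose fitted fold rests on at most 1 count per treated library.

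The messages most like ATF4 were sought over the 12 libraries of 7 days among 5275 genes averaging at least 10 FPKM, by Pearson's r of log2 counts scaled to library size. As a description, since the libraries share 4 treatment groups and no p applies, the leading genes were SARS (r = 0.998), GPT2 (0.996), NUPR1 (0.996), VEGFA (0.995) and S100P (0.995), and in the 6 libraries of 2 days their r was between 0.949 and 0.979. SARS, a tRNA synthetase gene, was at 69.5 FPKM with vehicle and at 23.2, 23.8 and 26.8 with VIC-1911, olaparib and both, and the highest treated mean was that of the combination, as in ATF4. S100P, a calcium-binding protein, went from 167 FPKM to 4.23, 4.64 and 8.17. Of the other 9 regulators, CEBPB (0.996), DDIT3 (0.994) and CHAC1 (0.99) had the highest r with ATF4, and ASNS, CEBPG, ATF3 and TRIB3 had 0.965 to 0.984. PPP1R15A, at 0.383, and ATF5, at 0.257, did not follow it.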

How the data were processed

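The 18 libraries hold poly(A) RNA of C4-2B cells and were grouped by their titles. Reads had been cleaned of adaptors (Trimmomatic) and mapped with STAR (version 2.6.0 per the labels) to GRCh38, and the authors deposited raw gene counts, 1 table per time point. The authors also deposited FPKM values from an in-house script, used here as levels. At 2 days the FPKM of a gene are not an exact multiple of its counts. Relative to the median gene, FPKM per count was between 0.976 and 1.09 for the 10 regulators. The handling of strand and of shared reads is not given in the sources used here. All 36 columns were used.

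The main test was the quasi-likelihood test of edgeR 4.0.16 in R 4.3.3 after TMM scaling. Genes needed 10 counts or more in 3 libraries or more, which left 12241 genes at 2 days and 14409 at 7 days, with 1 fit per time point, and 1 over 13832 genes for the difference between days. P-values were adjusted by Benjamini-Hochberg over all genes of a comparison, two-sided. Calls needed an adjusted p under 0.05 and a fold of 1.5 at 2 days or 2 at 7 days, with no fold limit for the interaction and the difference between days. Fold changes come from counts, and each standard error was derived from the fold change and its test statistic. Intervals are 95%, normal, and not adjusted for the number of genes. An interval can therefore leave out 0 where the adjusted p did not pass. The labels do not say that replicates are separate cultures, so p-values measure only the spread between these libraries, which may be technical. The regulators, lists and tests were chosen with earlier results of these data known. Besides the 10 regulators, the text names the eIF2α kinases and PPP1R15B, the 3 genes of each list with the smallest adjusted p among those called in the combination at 7 days and in VIC-1911 at 2 days, and the 5 genes most like ATF4. MARS and FGF21 were named after their values were seen. Same-numbered replicates did not deviate together (r between -0.036 and 0.111 at 7 days). The code was tested on simulated data. Positions are those of GENCODE on GRCh38, and promoter sequences those of RefSeq. Alternatives were upper-quartile normalization, library size alone, no filter, a minimum mean of 1 FPKM, DESeq2 1.42.0, glmTreat, limma 3.58.1 on log2(FPKM + 0.1) and log2(FPKM + 1), the replicate block, a fit of the compared groups alone and each library left out.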

Additional observations from a re-analysis of the deposited data

Results flagged for a closer look

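Some effects of VIC-1911 differed between 2 conditions by a test of the difference itself (edgeR, adjusted p under 0.05), and these are collected here. Between the days, 8 genes had a lower log2 effect at 7 than at 2 days, by -2.94 in CHAC1, -2.12 in DDIT3, -1.94 in ASNS, -1.63 in TRIB3, -1.3 in CEBPB, -1.22 in ATF3, -1.02 in ATF4 and -1 in CEBPG. Between cells with and without olaparib at 7 days, 9 genes had a higher log2 effect with it. A higher effect here means that VIC-1911 lowered the gene less or not at all. The difference was 4.62 in CHAC1, 3 in ASNS, 2.73 in DDIT3, 2.52 in TRIB3, 2.3 in CEBPB, 1.69 in ATF4, 1.64 in ATF3, 1.52 in CEBPG and 0.84 in PPP1R15A. In CHAC1 the effect was -4.24 without and 0.39 with olaparib, in ASNS -2.84 and 0.16. In DDIT3 it was -2.38 and 0.35, and in TRIB3 -2.55 and -0.03. The 3 vehicle libraries of 7 days enter both differences. For genes that each drug alone lowered to about the level of the pair, the second difference follows from the single-drug changes. Groups of 3 libraries were too small to look for single outlying libraries.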

How the results depend on the processing

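Of 80 pairs of a regulator and a comparison, 44 were called, 42 of them under every alternative, and of the 36 not called, 35 were called under none. The exceptions were CEBPB at 2 days and ATF3 with olaparib, both lost with glmTreat, and ATF3 with both drugs, called with a filter on mean FPKM (-1) and without 1 of 3 libraries. Same-numbered libraries shared little deviation from their group means (1 of 18 same-numbered pairs at 7 days had r over 0.1). This cannot show whether the cultures were paired by design. With the replicate block the counts of called genes were again 4 at 2 days, 8, 8 and 7 lower at 7 days and 9 higher for the interaction. By adjusted p alone, ATF5 with both drugs passed under 10 of 16 alternatives (not with library size alone, adjusted p = 0.0654, nor with limma), CEBPB against VIC-1911 under 8 of 16 (0.0893 with DESeq2) and PPP1R15A with VIC-1911 at 7 days under 14 of 16. In the combination against olaparib, DDIT3 passed under 10 of 16 and not with limma. Directions turned only near 0, and the cause was not tested. ATF5 with olaparib, and the difference between days in ATF5, were 0.01 with limma on FPKM with a pseudocount of 0.1 or 1 and 0.05 without vehicle replicate 2, without which ATF5 with VIC-1911 at 7 days was 0.01. PPP1R15A with both drugs was -0.05 without vehicle replicate 1. With each library left out in turn, ATF5 ranged from -0.11 to 0.05 with olaparib, from -0.14 to 0.01 with VIC-1911 at 7 days and from -0.14 to 0.05 between the days, and PPP1R15A with both drugs from -0.05 to 0.3. Depth limits PPP1R15A most, with 18 to 44 counts per library at 2 days.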
